A study of Bos taurus with 47 samples.

Results

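A set of 10 genes was low in bovine oocytes and in early embryos made by in vitro fertilization (IVF), high in IVF morulae and low again in IVF blastocysts. The genes were chosen from 20526 genes by their median normalized read counts in the 4 libraries of each group. The rule asked for a median of at most 20 in oocytes, IVF 2-cell and IVF 8-cell embryos, at least 60 in IVF morulae, and a morula median at least 3 times the blastocyst median. The levels in those 5 groups therefore chose the genes and are given as a description, with no test. The cattle samples fell into 12 groups: mature (MII) oocytes, cultured fibroblasts, and 2-cell embryos, 8-cell embryos, morulae, blastocysts and blastocyst-derived cells, each made by IVF and by nuclear transfer. In somatic cell nuclear transfer (scNT) the chromosomes of an oocyte are removed and a somatic cell, here a fibroblast, is fused to it. Per the labels, embryos were pooled by 20 and frozen on days 2, 3, 6 and 8 after IVF or scNT. There were 3 libraries of scNT morulae (replicates 2, 3 and 4) and 4 of each other group, while the extraction protocol speaks of 3 pools per stage. Sperm came from a Holstein bull and the fibroblasts from the ear of a Brahma Spanish bull cross, and IVF zygotes were grown on cumulus cells, the somatic cells that surround the oocyte. The labels say nothing of how blastocyst-derived cells were cultured. The labels do not say which libraries came from different animals or cultures, and p-values therefore speak to the spread among the pools alone, and that spread can be technical.

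The early embryo runs at first on RNA stored in the oocyte. In cattle the main wave of transcription from the embryo's own genome begins around the 8-cell stage, and stored RNA is degraded over the same period. The morula is the ball of cells that follows, in which cells flatten against each other before an outer layer, the trophectoderm, and an inner cell mass separate in the blastocyst.

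The deposited table gives Ensembl gene identifiers only. No identifier matched the reference table used here, which gave 0 symbols, so the 10 genes are named by identifier and nothing is said of their functions, positions or sequences. For the same reason the 12 lists of named genes, among them markers of trophectoderm, inner cell mass, fibroblasts and cumulus cells, could not be applied, and the labelled cell types were not checked against markers. In the 46 libraries where reads could be recovered there were 4608100 to 16642389 of them. The 10 genes together took 810 to 1176 reads in an IVF morula library, 1176 to 2278 in an scNT morula library, and at most 61 in an scNT 8-cell library.

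In IVF morulae the 10 genes had medians between 64.9 and 234 normalized counts. The highest was ENSBTAG00000016234, with 235, 181, 233 and 238 in replicates 1 to 4. ENSBTAG00000024700 followed with 230, 244, 197 and 200.6. Both stood near the same level in all 4 pools, with replicate 2 lowest for the first gene and replicate 3 for the second. The third, ENSBTAG00000016239, had 205, 140, 178 and 117. ENSBTAG00000046550 had 52.5, 78.8, 113 and 124, and ENSBTAG00000020391 had 98.7, 93.6, 46.0 and 84.9. Replicate 1 was lowest for the former gene and replicate 3 for the latter, so no 1 pool was low for both. ENSBTAG00000003749 had 105, 141, 68.4 and 64.3, and ENSBTAG00000045786 had 78.7, 75.8, 33.1 and 84.0. The lowest of the 10, ENSBTAG00000005570, was also the steadiest, with 67.9, 62.4, 67.3 and 56.6, a coefficient of variation of 8.26% against up to 52.2% for the others. ENSBTAG00000047847 had 94.1, 90.7, 79.1 and 20.6, and ENSBTAG00000047356 had 83.3, 106, 83.4 and 18.0. Replicate 4 was low for both of these genes, and it was the lowest IVF morula library for 5 of the 10.

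**Figure D1:**
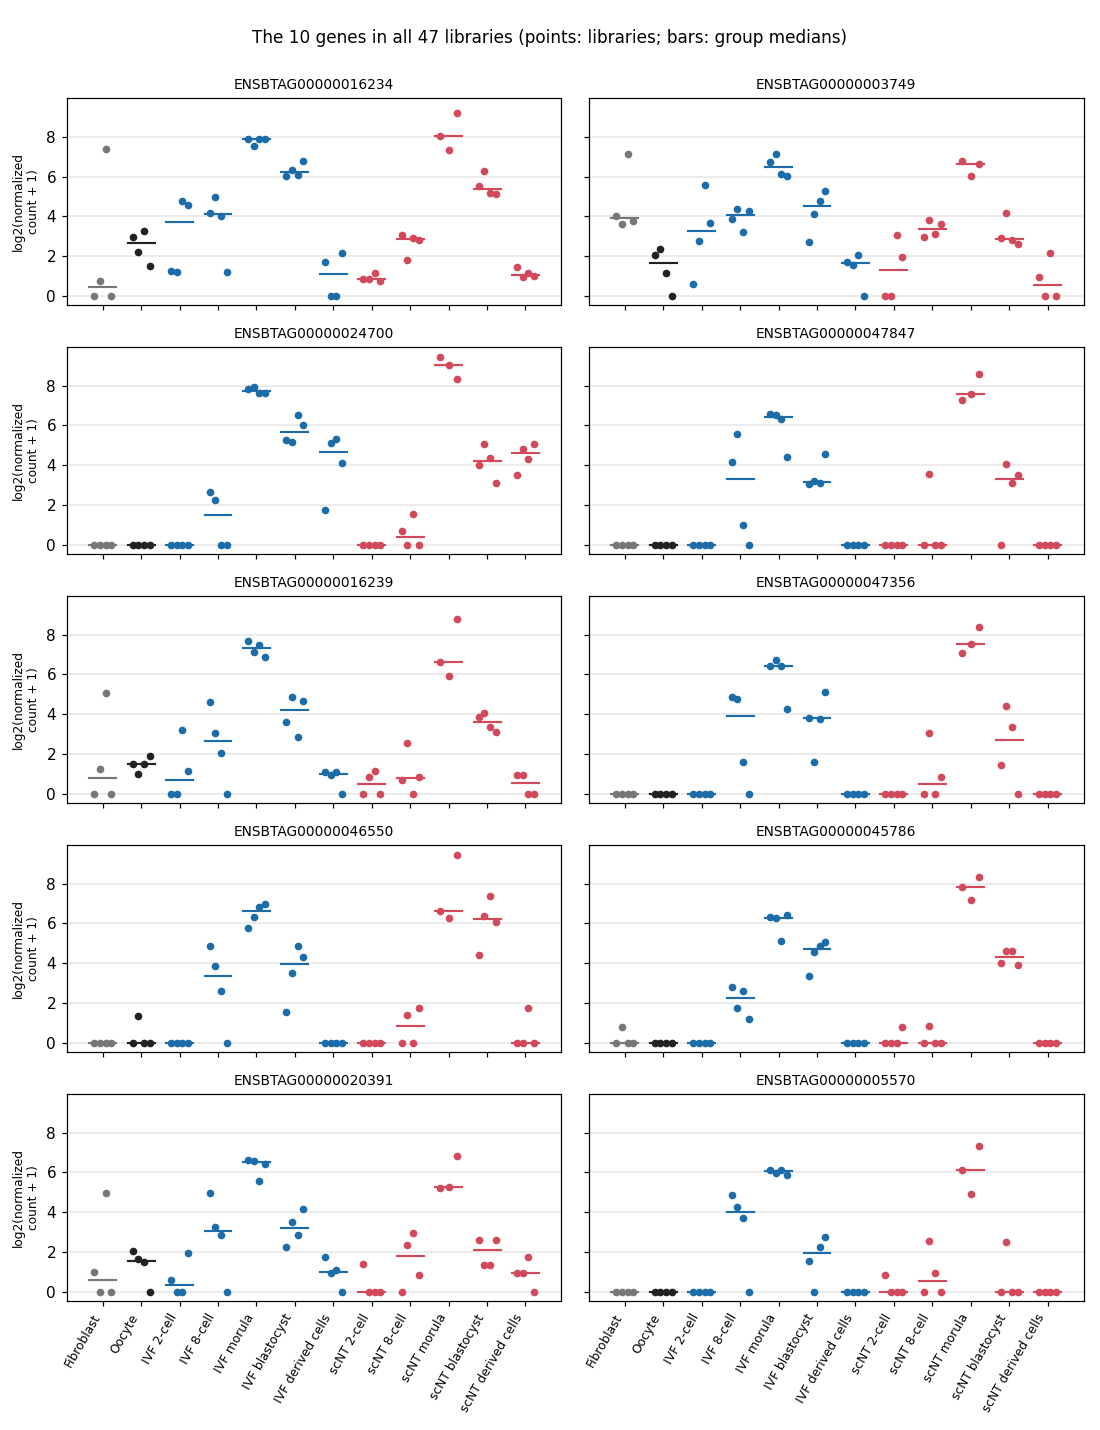
Levels of the 10 genes in all 47 libraries, as log2(normalized count + 1), with 1 panel per gene, 1 point per library and a bar at the median of each of the 12 groups (IVF blue, scNT red). By median all 10 genes are highest in the morulae, within IVF and within scNT embryos, and 1 fibroblast library, replicate 3, stands above the other fibroblasts for 4 genes.

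Some IVF 8-cell pools already held reads of these genes. Summed over the 10 genes, the IVF 8-cell libraries had 196, 176, 58.0 and 20.7 normalized counts in replicates 1 to 4, against 1008 to 1250 in IVF morulae. Replicates 1 and 2 held reads of all 10 genes and replicate 4 of only 3, so the pools of this stage were not alike. The 149 other genes with the same morula onset varied less among these pools, with sums of 1737, 2274, 1451 and 1019. For 8 of the 10 genes every IVF morula library was above every IVF 8-cell library, the exceptions being ENSBTAG00000047847 and ENSBTAG00000047356. The same held for 18.8% of the 13407 genes with at least 10 in 4 of these libraries, a share from which nothing is read, since the rule used this contrast.

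By the IVF blastocyst the summed level had come down to 154, 212, 278 and 366. The median left in IVF blastocysts was between 4.39% and 32.6% of the morula median, an upper end that the rule limits. ENSBTAG00000016234 kept the highest blastocyst level, with 63.2, 79.6, 67.3 and 111. ENSBTAG00000005570 kept the least, with 1.90, 0, 3.80 and 5.60. ENSBTAG00000024700 stood between, with 37.2, 34.7, 91.4 and 63.8. Replicate 4 was the highest IVF blastocyst library for 7 of the 10 genes and replicate 1 the lowest for 6. For 8 of the 10 genes every IVF morula library was above every IVF blastocyst library, and the exceptions were again ENSBTAG00000047847 and ENSBTAG00000047356, by way of morula replicate 4. Among 13354 genes with at least 10 in 4 of these libraries the share was 27.6%, again in a contrast that the rule used. In bulk pools, fewer cells that hold a transcript and less transcript per cell cannot be told apart.

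Near the limits of the rule the values ran on without a gap. ENSBTAG00000005570 was just inside the morula limit at a median of 64.9, and ENSBTAG00000019595 was just outside at 58.0. At the limit of a 3-fold fall, ENSBTAG00000045786 had a morula to blastocyst ratio of 3.07 and ENSBTAG00000030663, left out, had 2.90. The early limit was met most narrowly by ENSBTAG00000016234, at 16.2 in IVF 8-cell embryos, while ENSBTAG00000016327 exceeded it at 22.7.

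The 10 genes were of 2 kinds up to the 2-cell stage, a division made after their values were seen. For 6 of them (ENSBTAG00000024700, ENSBTAG00000046550, ENSBTAG00000047847, ENSBTAG00000047356, ENSBTAG00000045786 and ENSBTAG00000005570) the 4 IVF 2-cell libraries held 0 reads. Over all of their values they had 3 reads in oocytes, 2 in scNT 2-cell embryos and 1 in fibroblasts. The other 4 (ENSBTAG00000016234, ENSBTAG00000016239, ENSBTAG00000020391 and ENSBTAG00000003749) had 72 reads in oocytes, where no value passed 8.60 normalized counts, and 152 in IVF 2-cell embryos, where the highest value was 46.2. Of the IVF 2-cell reads, 70 were of ENSBTAG00000003749 and 67 of ENSBTAG00000016234, against 9 of ENSBTAG00000016239 and 6 of ENSBTAG00000020391. The IVF 2-cell libraries held 5, 11, 70 and 66 reads of the 10 genes in replicates 1 to 4. In scNT 2-cell embryos the 4 genes had 18 reads. Up to the 2-cell stage, then, these 4 genes had reads, unevenly among genes and pools, and the first 6 almost none. At the IVF 8-cell stage both kinds had reads, 267 for the first 6 and 229 for the other 4.

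The same 4 genes separated fibroblast replicate 3 from the other fibroblasts. In that library ENSBTAG00000016234 had 165 normalized counts, ENSBTAG00000003749 had 139, ENSBTAG00000016239 had 32.6 and ENSBTAG00000020391 had 30.2. In the other 3 fibroblast libraries no value of these genes passed 15.1, and the first 6 genes stood at 0 in replicate 3. The sum over the 149 other morula-onset genes was lower in replicate 3, at 6892, than in the rest, at 8285 to 10941. What sets this library apart was not tested.

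The scNT embryos provided libraries that had no part in the choice, and in them the first question was whether the 10 genes come on between the 8-cell stage and the morula. All 10 rose. The median log2 difference was 6.37, against -0.17 over the 13702 genes tested (limma on log2(value + 1), n = 3 morula and 4 8-cell libraries, Benjamini-Hochberg adjusted p between 3.15e-05 and 0.00133). Among all genes tested 31.2% were called higher. A gene was tested if at least 3 of these libraries held 10 or more normalized counts. None of the 10 did so in the 8-cell libraries alone, so all entered through their morula values, where they are high. With no such filter 10 of the 10 were called higher, as were 23.8% of 20203 genes. Every scNT morula library was above every scNT 8-cell library for 10 of the 10, as for 32% of all genes tested.

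On the log2(value + 1) scale the largest rise was that of ENSBTAG00000024700. It had 0.60, 0, 1.90 and 0 normalized counts in scNT 8-cell embryos and 705, 522 and 328 in the 3 scNT morula libraries. The log2 difference was 8.40 ± 0.52 (SE; limma adjusted p = 3.15e-05). Only 3 reads lay behind the 8-cell values, and the ratio of read sums was 981, with a 95% exact binomial interval from 335 to 4764 that covers counting error only. Next came ENSBTAG00000045786, with 0, 0.80, 0 and 0 at the 8-cell stage, which was 1 read, and 228, 146 and 322 in morulae (log2 difference 7.58 ± 0.47, limma adjusted p = 3.26e-05). Its ratio of read sums was 1216, with an interval from 217 to 48107, so by read sums the order of these 2 genes was not fixed. For these genes the 8-cell level was at the edge of detection, so the size of the rise is poorly bounded above.

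The smallest rises belonged to ENSBTAG00000003749 and ENSBTAG00000020391. ENSBTAG00000003749 had 6.80, 13.1, 7.50 and 11.3 at the scNT 8-cell stage and 108, 64.8 and 99.7 in morulae (log2 difference 3.12 ± 0.39, limma adjusted p = 1.97e-04). ENSBTAG00000020391 had 0, 4.10, 6.60 and 0.80 and then 35.7, 37.4 and 112 (4.23 ± 0.78, limma adjusted p = 0.00133). Both belong to the 4 genes with reads in IVF 2-cell embryos. The remaining 6 genes had log2 differences between 5.24 and 6.92. Among them are the other genes with such reads, ENSBTAG00000016234 at 5.54 and ENSBTAG00000016239 at 6.07.

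The scNT 8-cell medians lay below the IVF 8-cell medians for 10 of the 10 genes, although only 1 gene, ENSBTAG00000045786, had every scNT library below every IVF library. Of all 20169 genes with a value above 0 in any of these 8 libraries, 43.2% were lower by median and 1.63% had every scNT library below. Replicate 2 was the fullest scNT 8-cell library, with a sum over the 10 genes of 50.0 against 15.4, 23.5 and 22.0 in replicates 1, 3 and 4. ENSBTAG00000047847 stood at 10.7 in that library and at 0 in the other 3. The IVF 8-cell values had part in the choice of the genes, so this difference was not tested.

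From the scNT morula to the scNT blastocyst all 10 log2 differences were negative, and 9 of the 10 genes were called lower. The median log2 difference over the 10 was -3.66 against -0.09 over the 13236 genes tested (limma, n = 4 blastocyst and 3 morula libraries). Among all genes tested 26.1% were called lower. ENSBTAG00000005570, ENSBTAG00000016239, ENSBTAG00000020391, ENSBTAG00000003749, ENSBTAG00000047847 and ENSBTAG00000047356 passed the filter through their morula values, where they are high. Their blastocyst values alone would not have passed it. With no filter 9 of the 10 were called lower, as were 18.3% of 20093 genes. Every blastocyst library was below every morula library for 9 of the 10, as for 29.2% of all genes tested. This comparison shares the 3 scNT morula libraries with the one before it. Over all genes 2855 were called higher and 3460 lower, a split that became 1518 and 5777 with equal library totals and 3526 and 2636 with TMM scaling, while the same 9 genes were called lower under both.

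ENSBTAG00000005570 fell to nothing in 3 of 4 pools, with 0, 4.6, 0 and 0 in scNT blastocysts after 68.7, 28.6 and 160 in morulae (log2 difference -5.49 ± 0.82, limma adjusted p = 8.77e-04). The blastocyst values rested on 3 reads, and the ratio of read sums was 71.6, with an exact binomial interval from 24.2 to 350.2. ENSBTAG00000047356 had 1.70, 20.1, 9.20 and 0 in blastocysts after 134, 181 and 328 (-5.35 ± 0.99, limma adjusted p = 0.00337). ENSBTAG00000047847 had 0, 15.5, 7.70 and 10.2 after 154, 189 and 378 (-5.14 ± 0.92, limma adjusted p = 0.00297). These 2 genes had similar values in each of the morula libraries of both methods, including the low IVF replicate 4. The identifiers do not show whether they are related, and reads shared between similar genes cannot be told from their own.

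ENSBTAG00000024700 fell from 705, 522 and 328 to 14.9, 32.5, 19.9 and 7.60 (log2 difference -4.81 ± 0.45, limma adjusted p = 1.46e-04). ENSBTAG00000045786 fell to 14.9, 23.2, 23.0 and 14.0 (-3.52 ± 0.34, limma adjusted p = 1.44e-04). The least of the 9 called falls was that of ENSBTAG00000016234, from 265, 161 and 579 to 44.7, 75.9, 35.3 and 34.3 (-2.67 ± 0.44, limma adjusted p = 0.00168). The other 3 called genes had log2 differences between -3.80 and -3.36. Replicate 2 was the highest scNT blastocyst library for 8 of the 10 genes.

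The exception was ENSBTAG00000046550. Its scNT morula values were 96.9, 77.2 and 703 and its scNT blastocyst values 19.9, 80.5, 167 and 66.1, so the groups overlapped. The log2 difference was -1.40 ± 1.00 (limma adjusted p = 0.291). Over the alternatives it ran from -1.99 to -0.40 with adjusted p from 0.152 to 0.715. In IVF blastocysts the same gene had 1.90, 10.2, 27.9 and 18.8, and its scNT blastocyst median was 5.06 times the IVF one. That comparison was not tested, because the IVF blastocyst values took part in choosing the gene. Over the 10 genes the same ratio ran from 0 to 5.06, with a median of 0.484, again without a test.

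**Figure D2:**
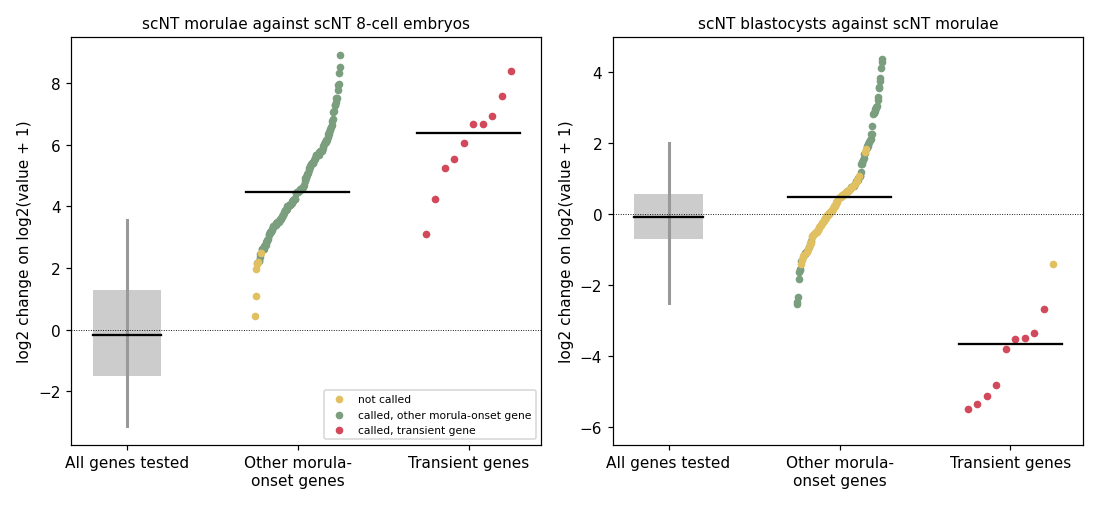
Log2 differences in scNT embryos, on the log2(value + 1) scale, from the 8-cell stage to the morula (left) and from the morula to the blastocyst (right). Grey bars span the 25th to the 75th percentile of all genes tested with lines from the 5th to the 95th percentile, points are the 149 other morula-onset genes (146 and 148 of them tested) and the 10 transient genes, and black lines are medians. The transient genes lie at 6.37 and -3.66 by median, and 1 of them was not called in the right panel.

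The rule's own limits were next applied to the scNT groups alone, with at most 20 in 2-cell and 8-cell embryos, at least 60 in morulae and a 3-fold fall to blastocysts. They were met by 8 of the 10 genes and by 51 of 20526 genes, or 0.248%. The 2 that missed them were ENSBTAG00000046550, which kept 75.6% of its median in blastocysts, and ENSBTAG00000020391, whose scNT morula median was 37.4. The 8 genes made up 80.0% of the 10 and 15.7% of the 51. Of the 51, 29 had an IVF 8-cell median above 20, and 11 were low in early IVF stages but under 60 in IVF morulae. The number of genes in all was 104 without scNT morula replicate 2 and 109 without replicate 3, of which 10 and 10 were among the 10 transient genes, and 43 without replicate 4, with 7 of them.

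Of the 149 other genes with the same onset in IVF embryos, 3 (2.01%) met the limits in scNT embryos. They had also come on in scNT morulae: 140 of the 146 tested were called higher there, with a median log2 difference of 4.47, and 113 of the 149 met the scNT onset limits. From the scNT morula to the blastocyst 49 of 148 were called higher and 15 lower, with a median of 0.47. With equal library totals these were 36 higher and 34 lower with a median of 0.07, and with TMM scaling 51 higher and 11 lower. The median was 0.08 without scNT morula replicate 2 and 0.13 without scNT blastocyst replicate 3. The fall separates the transient genes from the other genes in IVF embryos by the rule. In scNT embryos, which the rule did not use, 9 of 10 and 15 of 148 were called lower, or 9 of 10 and 34 of 148 with equal library totals. By sum the other genes had 22431 to 31725 normalized counts in scNT morula libraries and 52452 to 63322 in scNT blastocyst libraries. The 10 genes had 1465 to 3442 in the former and 121 to 286 in the latter.

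**Figure D3:**
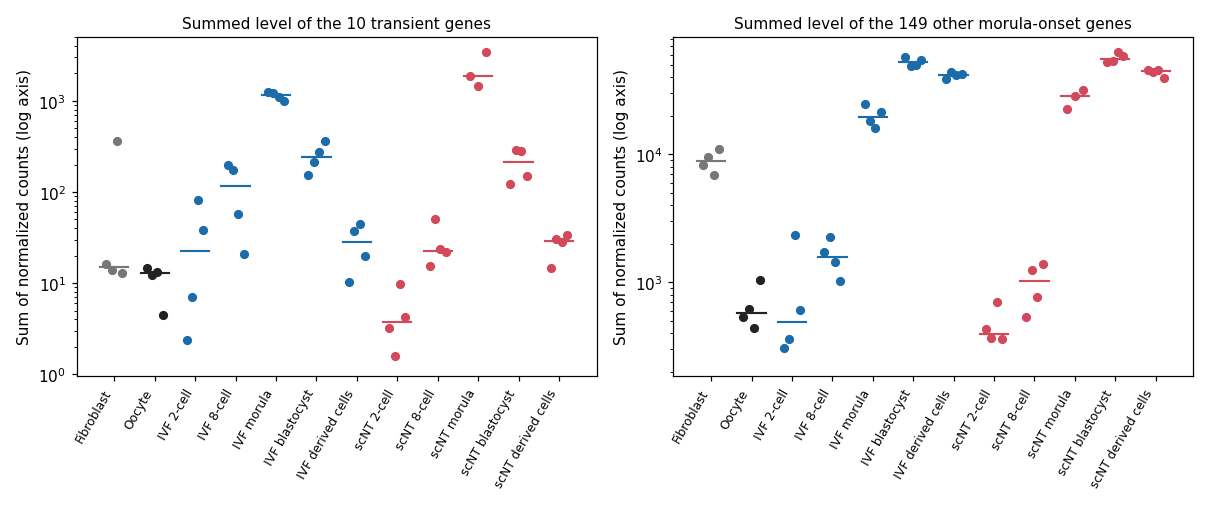
Sum of normalized counts per library on a log axis, for the 10 transient genes (left) and the 149 other morula-onset genes (right), in the 12 groups, with 1 point per library and bars at the medians. The transient genes sum to 1008 to 1250 in IVF morulae and 1465 to 3442 in scNT morulae and reach at most 366 elsewhere, whereas the other genes reach at least 38839 in blastocysts and derived cells.

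The summed level of the transient genes was higher in scNT than in IVF morulae. These values are set side by side without a test, since the IVF values chose the genes. The scNT morula libraries summed to 1892, 1465 and 3442 in replicates 2, 3 and 4, each above the highest IVF library at 1250. The 149 other morula-onset genes summed to 16015 to 24483 in IVF and 22431 to 31725 in scNT morula libraries, ranges that overlap. Library totals were also larger in scNT morulae, at 7683529 to 8557325 normalized counts against 7066242 to 7380172 in IVF morulae. By median 8 of the 10 genes were higher in scNT morulae, with ratios from 0.419 for ENSBTAG00000020391 to 2.95 for ENSBTAG00000045786. For 4 genes (ENSBTAG00000024700, ENSBTAG00000047847, ENSBTAG00000047356 and ENSBTAG00000045786) every scNT morula library was above every IVF morula library, and for 0 genes every one was below. Over the 13590 genes with at least 10 in 3 or more of these libraries, 17% were above in this way, 18.9% below, and 52.2% higher by median. All 4 belong to the genes without reads in IVF 2-cell embryos, as do ENSBTAG00000046550 and ENSBTAG00000005570, whose scNT and IVF morula values overlapped.

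Replicate 4 held the highest scNT morula value for 8 of the 10 genes, 1.41 to 7.25 times the next library. ENSBTAG00000046550 differed most, at 703 against 96.9 and 77.2, followed by ENSBTAG00000016239, at 434 against 96.9 and 58.5. ENSBTAG00000024700 went the other way, with its lowest value, 328, in replicate 4. Without replicate 4 the number of genes with a higher scNT median was 4 in place of 8, and the mean sum was 1678 in place of 2266. The sum over the 149 other morula-onset genes was also highest in replicate 4, at 31725 against 22431 and 28452.

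**Figure D4:**
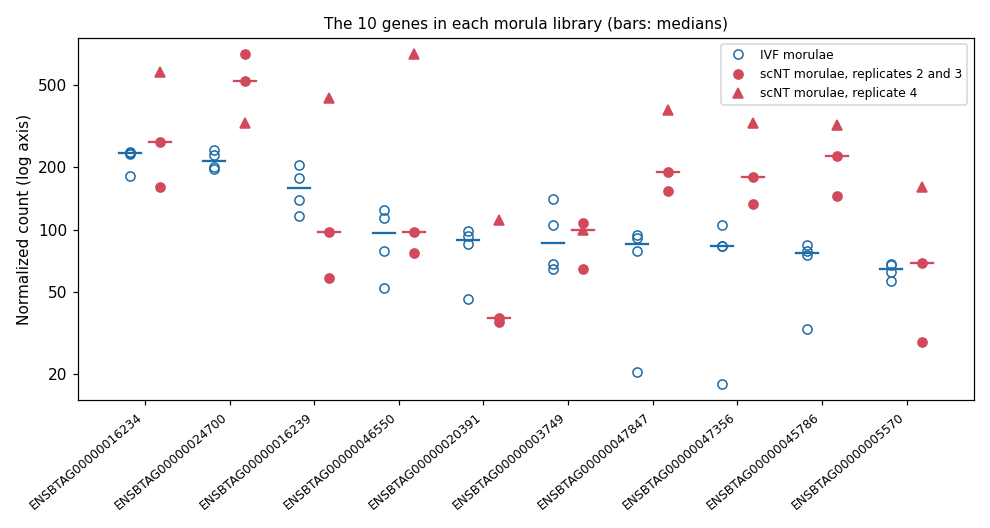
Normalized counts of the 10 genes in each morula library on a log axis, ordered by IVF median, with open blue circles for the 4 IVF libraries, red symbols for the 3 scNT libraries (triangle for replicate 4) and bars at the medians. Replicate 4 is the highest scNT library for 8 genes, and for 4 genes all scNT values lie above all IVF values.

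In cells cultured from blastocysts the 10 genes were nearly absent, apart from 1. From scNT blastocysts to scNT derived cells 3 of the 10 fell, 1 was tested and not called, and 6 did not pass the filter of 10 normalized counts in at least 4 libraries, while 34.1% of the 12786 genes tested were called lower (limma, n = 4 and 4). The 3 called genes passed that filter through their scNT blastocyst values alone, so their count says nothing of the 10 as a set. With no filter 7 of the 10 were called lower, as were 26.9% of 20068 genes. The added ones were ENSBTAG00000003749, ENSBTAG00000016239, ENSBTAG00000047356 and ENSBTAG00000047847. This comparison shares the scNT blastocyst libraries with the one before. ENSBTAG00000046550 fell to 0, 0, 2.30 and 0 (log2 difference -5.62 ± 0.64, limma adjusted p = 1.26e-05), so that the gene that had overlapped between scNT morulae and blastocysts was lower after culture. ENSBTAG00000016234 fell to 1.70, 0.90, 1.20 and 1.00 (-4.40 ± 0.38, limma adjusted p = 1.46e-06). ENSBTAG00000045786 had no read in derived cells (limma adjusted p = 2.87e-06). Against a floor of 3 reads per library it was at least 6.41-fold lower. Over all genes the calls were 4207 higher and 4364 lower, and 5347 and 3156 with equal library totals, with the same 3 genes called lower.

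The gene that kept a level in derived cells was ENSBTAG00000024700. It had 10.3, 27.6, 18.8 and 32.4 in scNT derived cells and 2.30, 33.4, 39.1 and 16.2 in IVF derived cells, both far under its morula values. Against scNT blastocysts the log2 difference was 0.29 ± 0.48 (limma adjusted p = 0.608), and between scNT and IVF derived cells it was 0.36 ± 0.74 (limma adjusted p = 0.908, n = 4 and 4). Over the alternatives of the second comparison it ran from -0.42, without IVF replicate 1, to 0.78, without IVF replicate 3. It was the only one of the 10 that passed the filter in that comparison, in which 1.34% of 12390 genes were called in either direction. That was 166 genes, which became 80 to 108 without any one of the 4 IVF libraries or of scNT replicates 1, 3 and 4. The other 9 genes did not pass 3.5 normalized counts in any derived-cell library, and 4 of them had no read in the 8 libraries.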

How the data were processed

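The deposited signal holds normalized read counts of genes, rounded to 1 decimal. Named in the submitters' processing notes are STAR, DESeq2, FastQC, MultiQC and build UMD3.1, while versions, roles, annotation and counting tool are not given in these sources. Per the labels' protocols, RNA over 200 nt was amplified in several PCR rounds, so reads are not taken as molecules.

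In 46 of 47 libraries, values up to 200 reads were whole multiples of the value of 1 read, within 0.1 read, for 96.4% to 100% of them. Those reads gave depths and the count tests used as alternatives. Fibroblast replicate 1 has a step too near 1 for this check.

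A gene entered a test when at least n libraries had a value of 10 or more, n being the size of the smaller group. The fits used limma 3.58.1 (trend, robust; R 4.3.3) on log2(value + 1), pseudocount 1, with no replicate block. That scale understates changes of low genes. Tests were two-sided, Benjamini-Hochberg adjusted over all genes tested, and called under 0.05. Between scNT stages, same-numbered libraries did not pair in a steady way. Between scNT and IVF derived cells, scNT libraries 1, 2 and 4 correlated most with the IVF library of their number. Alternatives were other pseudocounts, no filter, equal totals, TMM, edgeR 4.0.16 and DESeq2 1.42.0 on reads, the replicate block and leaving out each library. The rule for naming genes took, per comparison, up to 2 called genes in each direction without overlap and with a mean of at least 50 in 1 group, the 2 highest in IVF morulae and 1 just inside each limit. The others of the 10, and the 3 genes just outside, are named by choice after their values were seen. The genes, lists and tests were chosen with earlier results of these data known.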

Additional observations from a re-analysis of the deposited data

Results flagged for a closer look

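In 49 sets of 4 libraries (1 gene or the sum of the 10 genes in 1 group, with a highest value of at least 20), 8 held a library whose gap to the next exceeded Dixon's limit, where chance gives about 1 in 20. Of these, 5 were fibroblast replicate 3, by the sum over the 10 genes (366 against 12.8 to 16.1), ENSBTAG00000016234 (164.6 against at most 0.70), ENSBTAG00000003749 (138.6 against at most 15.1), ENSBTAG00000016239 (32.6 against at most 1.4) and ENSBTAG00000020391 (30.2 against at most 1.00). Among IVF morulae, replicate 2 was low for ENSBTAG00000016234 (181.3 against 233 to 238.4) and replicate 3 was low for ENSBTAG00000045786 (33.1 against 75.8 to 84.0). In IVF blastocysts replicate 4 was high for ENSBTAG00000047847 (22.5 against 7.40 to 8.20). That set and the 5 of fibroblasts reached 20 through the flagged library alone, and the fibroblast sum repeats its genes. The group of 3 scNT morula libraries was not examined this way.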

How the results depend on the processing

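Over the alternatives run, all called changes of the 10 genes kept their direction and their adjusted p under 0.05. These were 150 of 150 from scNT 8-cell embryo to morula (highest 0.0089) and 135 of 135 from scNT morula to blastocyst (highest 0.0437). In scNT derived cells they were 48 of 48 (highest 9.47e-05). The 3 genes behind this last count passed the filter through scNT blastocyst values alone, so it says nothing of the 10 as a set. In the first step all 10 passed through scNT morula values. In the second step most of the called genes did so too, and the uncalled ENSBTAG00000046550 is not part of that count. The number of genes that meet the rule in IVF embryos moved more: 20 with equal library totals, 6 and 16 with early limits of 10 and 40, 24 and 3 with morula limits of 30 and 120, 16 and 6 with falls of 2-fold and 5-fold, and 8 to 14 when 1 library was left out. Members meeting the limits in scNT embryos were 7 to 10 when 1 library was left out. The median rise to the scNT morula was 4.40 with a pseudocount of 8, and 5.45 to 6.73 with 1 library left out. Derived cells against scNT blastocysts, over the 4 genes tested, had a median of -4.34, which was -5.00 and -2.13 with pseudocounts of 0.5 and 8, -6.07 by edgeR and -5.99 by DESeq2. With no filter 7 of the 10 were called lower there, with a median of -2.51 over 10, as were 26.9% of 20068 genes. Between the 2 kinds of derived cells ENSBTAG00000024700, the 1 gene tested, was at 0.362 with and without the filter, and the median over the 6 genes with any value was 0.0575 with no filter. For that 1 gene the value was -0.0332 by edgeR and -0.0294 by DESeq2, and -0.418 to 0.783 with 1 library left out. DESeq2 called 455 genes there, and leaving out 1 library gave 80 to 134. With the replicate block 302 genes were called between derived cells and 3806 from scNT morula to blastocyst (6315 without the block). Same-numbered libraries correlated in their deviations between -0.223 and 0.426, and the numbers were not taken as pairs. Between scNT and IVF derived cells, the same-numbered correlations were 0.0784, 0.4264, 0.01636 and 0.2884 for replicates 1 to 4. The highest with another number were 0.007442, -0.006175, 0.1365 and 0.2364, so the libraries there may be partly paired. The block changed no call of the 10 genes. Of the 148 other morula-onset genes it called 34 higher and 6 lower from scNT morula to blastocyst. The causes of these shifts were not tested. Depth limits the values near 0, where 3 reads per library stand for a mean of 2.31 at the scNT 8-cell stage and of 2.93 in scNT derived cells, as normalized counts.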
